A study of Mus musculus with 8 samples.

Results

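The miR-199 and miR-214 microRNAs were followed on 8 mouse kidney arrays, 4 from sham-operated mice and 4 from mice with ischemia-reperfusion injury (IRI), an acute kidney injury made by stopping and restoring renal blood flow. They were picked by name: the 5 array entries mmu-miR-199a-3p, mmu-miR-199a-5p, mmu-miR-199b-5p, mmu-miR-214-3p and mmu-miR-214-5p, out of 1881 mouse miRNAs with probes. Of the 5, 4 were detected, each on all 8 arrays, and entered the test with 379 miRNAs in all. The other, miR-214-5p, was detected on 0 of 8 arrays. All mice were C57BL/6 males of 9 weeks. IRI mice lost the right kidney and had the left renal vessels clamped for 25 or 45 min, with harvest after 12 or 24 h; sham mice had the midline incision alone, so nephrectomy and ischemia cannot be told apart. The labels do not tie clamp or harvest times to single samples, nor say that samples are separate animals, so the p-values measure the spread between these samples, which may be technical.

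miR-199a, miR-199b and miR-214 are made from hairpins that lie on the strand opposite to the dynamin genes. Mir199a-2 and Mir214 share a long non-coding host transcript, Dnm3os (the dynamin 3 opposite strand RNA), whose promoter is known to respond to the E-box factor TWIST1. Each hairpin is cut into a 5p and a 3p strand, and the bases at positions 2 to 8, the seed, direct most target pairing. The family is best known from mesenchymal cells, such as fibroblasts and pericytes, and has been linked to fibrosis of the kidney and other organs. Whole kidney RNA was measured here, so fewer cells of a type and less RNA per cell cannot be told apart, and the cells that held these miRNAs were not measured.

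The mature strands are shown to make clear which of them the array could keep apart, with the seed in capitals (RefSeq, GRCm38.p6). The table matched 4 of the 5 by name, all but miR-199b-5p.
mmu-miR-199a-3p: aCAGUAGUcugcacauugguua
mmu-miR-199a-5p: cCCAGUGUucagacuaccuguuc
mmu-miR-214-3p: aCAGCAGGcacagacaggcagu
mmu-miR-214-5p: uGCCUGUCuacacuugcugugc
No seed was shared between these 4 strands. The 3p strand of Mir199b has the same letters as miR-199a-3p, so 1 mature sequence comes from 3 hairpins, and the files list miR-199b-3p on the miR-199a-3p probes. The value called miR-199a-3p below is therefore the sum over Mir199a-1, Mir199a-2 and Mir199b. Of other array miRNAs, miR-761 (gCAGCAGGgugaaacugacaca) had the seed of miR-214-3p. It was detected on 0 of 8 arrays.

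The hairpins show where each strand is cut, with annotated mature strands in capitals. Mir199a-1 (chr9:21496495-21496564, minus strand) lies within Dnm2, which runs on the plus strand. Mir199a-2 (chr1:162217814-162217923, plus strand) and Mir214 (chr1:162223368-162223477, plus strand) lie within Dnm3os and opposite Dnm3, with 5444 bases between them. Mir199b (chr2:32318460-32318569, plus strand) lies opposite Dnm1. All positions are of GRCm38.p6.
Mir199a-1: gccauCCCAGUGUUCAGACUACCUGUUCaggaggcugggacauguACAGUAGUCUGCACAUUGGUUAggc
Mir199a-2: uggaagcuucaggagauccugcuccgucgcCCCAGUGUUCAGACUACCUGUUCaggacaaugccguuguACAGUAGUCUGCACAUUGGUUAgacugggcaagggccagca
Mir199b: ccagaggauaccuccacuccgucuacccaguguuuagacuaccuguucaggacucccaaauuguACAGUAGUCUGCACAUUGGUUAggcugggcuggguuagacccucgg
Mir214: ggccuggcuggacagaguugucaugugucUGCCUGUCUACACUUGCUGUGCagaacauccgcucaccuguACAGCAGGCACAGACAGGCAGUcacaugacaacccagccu

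The longest probe of each detected strand is given because 2 of the 4 differ at a single place within their shared stretch, and this is all that separates the 5p strands of miR-199a and miR-199b on the array.
miR-199a-3p probe: taaccaatgtgcagactact
miR-199a-5p probe: gaacaggtagtctgaacac
miR-199b-5p probe: gaacaggtagtctaaacactgg
miR-214-3p probe: actgcctgtctgt
Against the Mir199b hairpin the miR-199a-5p probe has 1 mismatch, G14A, and against both Mir199a hairpins the miR-199b-5p probe has 1 mismatch, A14G. Positions are counted from the 5′ end of the probe, with the probe's base first and the base that would pair second. How much of a 5p signal came from the other family member was not tested. The miR-214-3p probes match Mir214 alone among the 4 hairpins.

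The values below are scaled signals in array units: background-subtracted intensity summed over the probes of a miRNA and divided by a factor for each array, its 75th percentile over the miRNAs detected everywhere. Signals of different miRNAs come from different probes and are not compared as levels. The arrays shared 1 slide and 1 scan, the first slide row holding the sham group and the second the IRI group, so slide row and group cannot be told apart. Between 327 and 379 miRNAs were detected on sham arrays and between 393 and 447 on IRI arrays.

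The 4 detected strands had lower signals in IRI than in sham kidneys, by 21.3% to 30.0% as taken from the mean log2 signals. Of these 1, miR-199b-5p, fell past the threshold. That is 1 of 4, against 36.7% of all 379 tested miRNAs called lower, and 0 of 4 called higher, against 12.1% (limma, adjusted p below 0.05; at an unadjusted p below 0.05, 4 of 4 were lower, against 41.2% of all tested, and 0 higher, against 13.7%). The median log2 change of the 4 was -0.38 beside -0.11 over all tested miRNAs. The size rests on the scaling between arrays: without it the changes were -0.068 for miR-199a-3p, -0.087 for miR-199a-5p, -0.21 for miR-199b-5p and -0.042 for miR-214-3p, with adjusted p from 0.535 to 0.904 (limma). For 2 of the 4, all IRI arrays lay below all sham arrays, as for 35.9% of the tested miRNAs.

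miR-199b-5p, the 5p strand of the hairpin opposite Dnm1, had scaled signals of 222, 263, 266 and 268 in sham 1, 2, 3 and 6. In IRI 1, 2, 3 and 18 it had 207, 197, 204 and 120.1. The groups did not overlap, IRI 18 was far below the other IRI arrays, and sham 1 was the lowest sham array. The mean was 255 ± 22.0 (SD, n = 4) in sham and 182 ± 41.4 (SD, n = 4) in IRI, a log2 change of -0.52 ± 0.18 (SE), 95% interval -0.94 to -0.094, adjusted p = 0.0469 (limma). The call rests on single arrays: without any 1 of sham 1, 2, 3 or 6 or IRI 2 it was lost, at adjusted p of 0.0537, 0.097, 0.11, 0.0985 and 0.0633 (limma). Without IRI 18 the change shrank to -0.33 and was called (adjusted p = 0.0185, limma).

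miR-199a-5p, the strand made from both Mir199a hairpins, had 179.9, 209.7, 208 and 208 in the 4 sham arrays. It had 176, 164, 169 and 113 in the 4 IRI arrays. IRI arrays again lay below all sham arrays, although IRI 1 came close to sham 1. The change was -0.39 ± 0.14 (SE), 95% interval -0.73 to -0.056, from 201 ± 14.3 to 156 ± 28.5 (SD, n = 4 each), and it missed the threshold (adjusted p = 0.0555, limma). Without IRI 1 or without IRI 18 it passed, at -0.46 (adjusted p = 0.0426) and -0.25 (0.0328, limma).

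miR-199a-3p, the strand shared by all 3 miR-199 hairpins, gave 705, 801, 777 and 795 in sham and 709, 627, 639 and 439 in IRI. IRI 1 lay above sham 1, so the groups overlapped. The change was -0.37 ± 0.15 (SE), 95% interval -0.71 to -0.034, from 769 ± 44.2 to 603 ± 116 (SD, n = 4 each; adjusted p = 0.0665, limma). Without IRI 1 it was -0.46 (adjusted p = 0.0366) and without IRI 18 it was -0.23 (0.0435, limma), so leaving out the highest or the lowest IRI array moved it past the threshold.

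miR-214-3p, the main strand of the hairpin downstream in Dnm3os, gave 56.7, 70.9, 65.2 and 66.6 in sham and 56.5, 51.7, 59.0 and 39.0 in IRI. Here IRI 3 lay above sham 1. The change was -0.34 ± 0.14 (SE; adjusted p = 0.074, limma), 95% interval -0.67 to -0.021, from 64.9 ± 5.95 to 51.5 ± 8.88 (SD, n = 4 each). Without IRI 18 it was -0.22 (adjusted p = 0.102, limma). Its shorter probe of 12 bases was dim, between 10.1 and 20.5, and gave -0.40, while the probe of 13 bases gave -0.33. miR-214-5p, from the other side of the same hairpin, had signals between -3.80 and 7.05, below the floor of 17.3 on every array, and is given no fold.

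**Figure D1:**
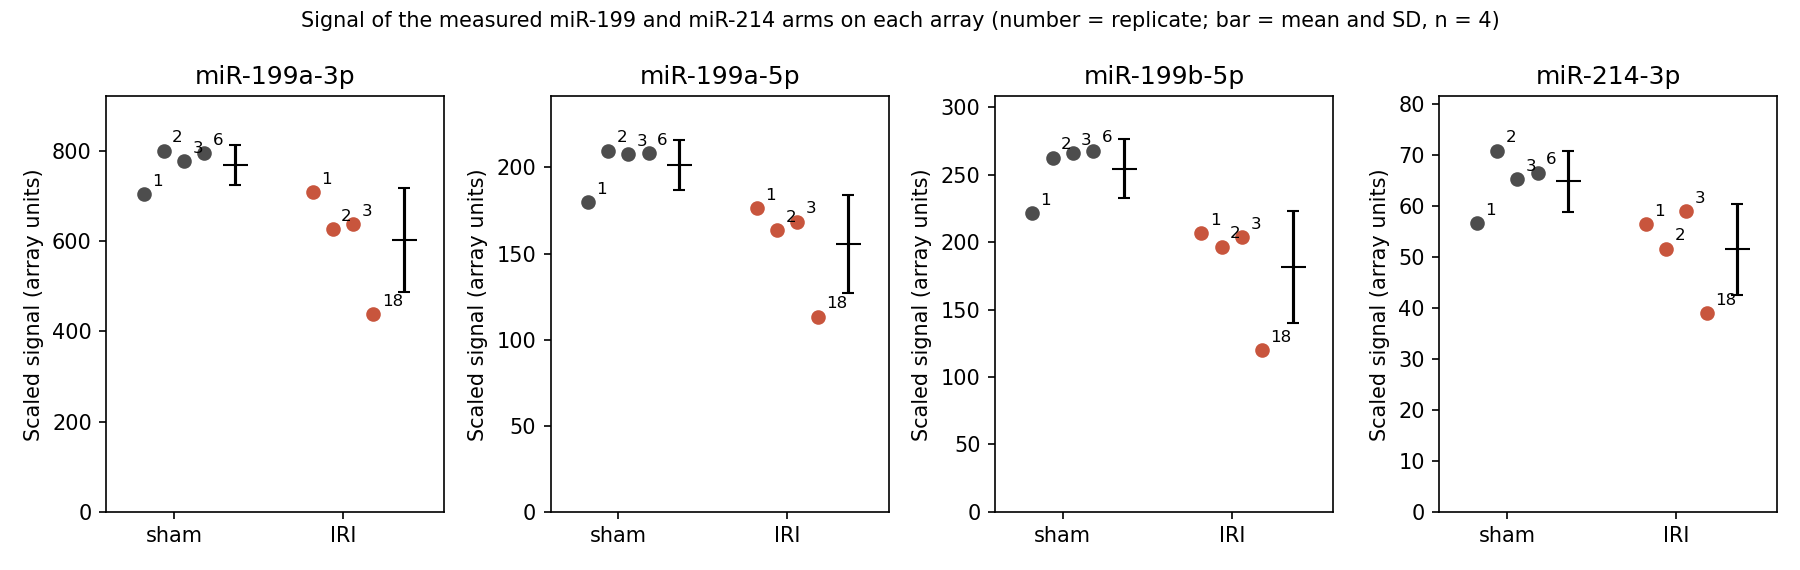
Scaled signal (array units, axis from 0) of the 4 detected strands, 1 panel each, on 4 sham and 4 IRI arrays; points are arrays labelled by replicate, and the bar beside them is the mean with its SD (n = 4). IRI 18 is the lowest point in each panel, and sham 1 is the lowest sham point in each panel.

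The probes of a strand moved alike. The probe pairs gave -0.37 and -0.37 for miR-199a-3p, -0.39 and -0.39 for miR-199a-5p, and -0.56 and -0.50 for miR-199b-5p on the log2 scale. Each probe had 12 to 15 usable spots per array, and the standard error over spots was at most 0.88% of the summed signal for miR-199a-3p, 1.86% for miR-199a-5p, 1.58% for miR-199b-5p and 3.91% for miR-214-3p. The spread between arrays of a group was wider than this spot error for each of the 4.

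Array-to-array spread was wider in IRI than in sham with all arrays. Leaving out 1 array, IRI 18, turned that order for 3 of the 4 strands, with all sham arrays kept. The coefficient of variation over sham arrays was 5.75% for miR-199a-3p, 7.12% for miR-199a-5p, 8.64% for miR-199b-5p and 9.18% for miR-214-3p. Over IRI arrays it was 19.1%, 18.4%, 22.8% and 17.2% in the same order. Without IRI 18 it was 6.71%, 3.77%, 2.56% and 6.63% over the other 3 IRI arrays, below sham for miR-199a-5p, miR-199b-5p and miR-214-3p and above it for miR-199a-3p. Sham kept its own lowest array, sham 1, in this comparison, so only 1 group was trimmed. Sham 2, 3 and 6 gave 801, 777 and 795 for miR-199a-3p and 209.7, 208 and 208 for miR-199a-5p. They gave 263, 266 and 268 for miR-199b-5p and 70.9, 65.2 and 66.6 for miR-214-3p. IRI 1, 2 and 3 gave 709, 627 and 639 for miR-199a-3p and 176, 164 and 169 for miR-199a-5p. They gave 207, 197 and 204 for miR-199b-5p and 56.5, 51.7 and 59.0 for miR-214-3p. For each strand these sham arrays lay closer together than these IRI arrays. The turned order thus came with leaving a low array out of 1 group only. The coefficient of variation with the low array of both groups left out was not computed. The difference in spread was not tested. On the log2 scale the SDs ran from 0.085 to 0.14 in sham, around the 0.13 that was the median of tested miRNAs. In IRI they ran from 0.27 to 0.38, above the median of 0.19, and without IRI 18 from 0.037 to 0.097, below a median of 0.14. In IRI, miR-199b-5p varied more than 80.2% of the tested miRNAs, and in sham more than 49.1%.

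**Figure D2:**
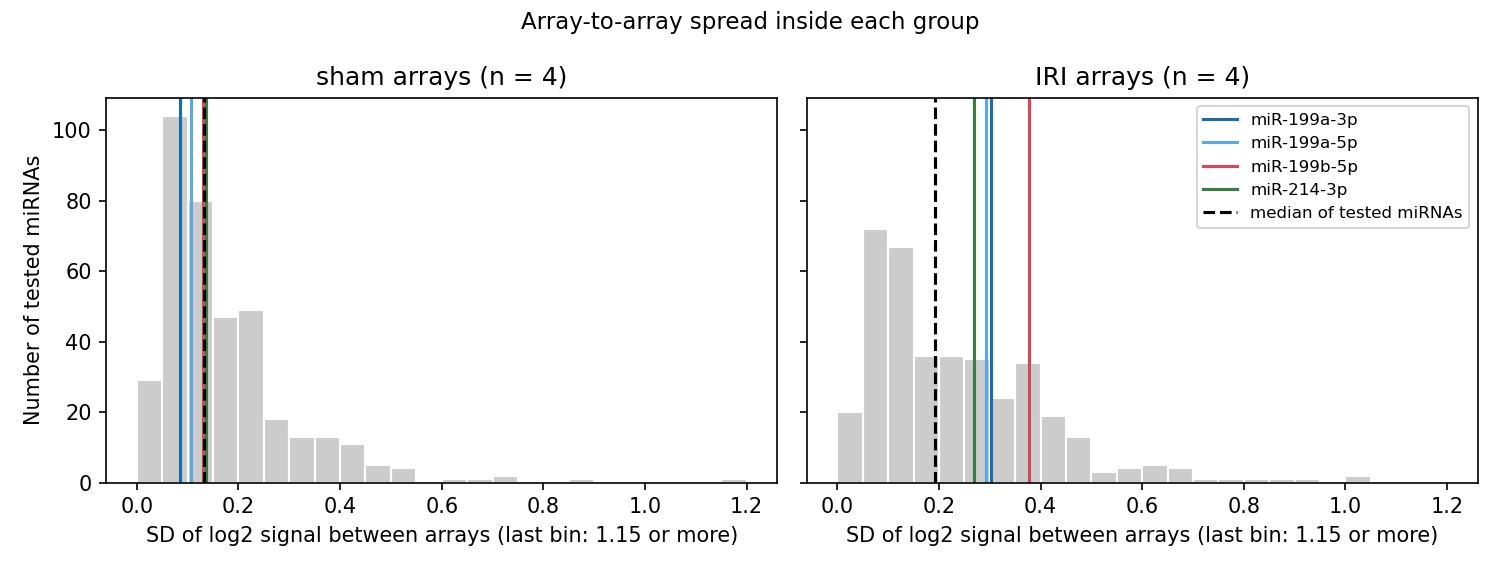
Number of tested miRNAs by the SD of their log2 signal between the 4 arrays of a group, sham left and IRI right; coloured lines are the 4 detected strands and the dashed line is the median of all 379. The strands sit near the median of 0.13 in sham and to the right of the median of 0.19 in IRI, where IRI 18 is included.

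A single array lay far below the rest of the IRI group. Against the mean of the other 3 IRI arrays, IRI 18 was lower by a log2 difference of -0.58 for miR-199a-3p, -0.58 for miR-199a-5p, -0.75 for miR-199b-5p and -0.51 for miR-214-3p. Only 0.264% of tested miRNAs lay lower than miR-199b-5p on this measure, and 1.85% lay lower than miR-214-3p. IRI 18 was the lowest IRI array for 4 of 4 strands and for 73 of all 379 tested miRNAs, with ties not counted as lowest. Its median difference over all tested miRNAs was 0.0021 after scaling, which by its construction brings arrays to a like level. Its scale factor was 0.993, the lowest of the IRI arrays.

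Sham 1 was likewise the lowest sham array for 4 of 4 strands, against 52 of all 379. Its differences from the other sham arrays were smaller, from -0.17 for miR-199a-3p to -0.26 for miR-199b-5p. Of 3 red blood cell miRNAs 1, miR-451a, was lowest in sham 1, while miR-144-3p was detected on 2 sham arrays and miR-486a-5p on 0. The summed scaled signal of the 3 was 41.1 in sham 1, against 246 to 902 on the other sham arrays. The part of blood content in the low sham 1 values was not tested.

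The other lists show what else stood low in IRI 18. The vessel-wall miRNAs miR-143-3p and miR-145a-5p, known from smooth muscle and pericytes, were both lowest there, with a median difference of -0.49. The 2 endothelial strands of miR-126a were also lowest there, with -0.15. Of kidney epithelial miRNAs, 2 of 10 were lowest in IRI 18 (median -0.028), as were 1 of 3 red blood cell miRNAs (-0.13). Of leukocyte miRNAs, 1 of 5 was lowest, miR-150-5p of lymphocytes, at -0.80. Of 11 fibrosis-linked miRNAs 1 was lowest, miR-132-3p at -0.089, with a list median of 0.095 and a range up to 0.55 for miR-21a-5p.

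**Figure D3:**
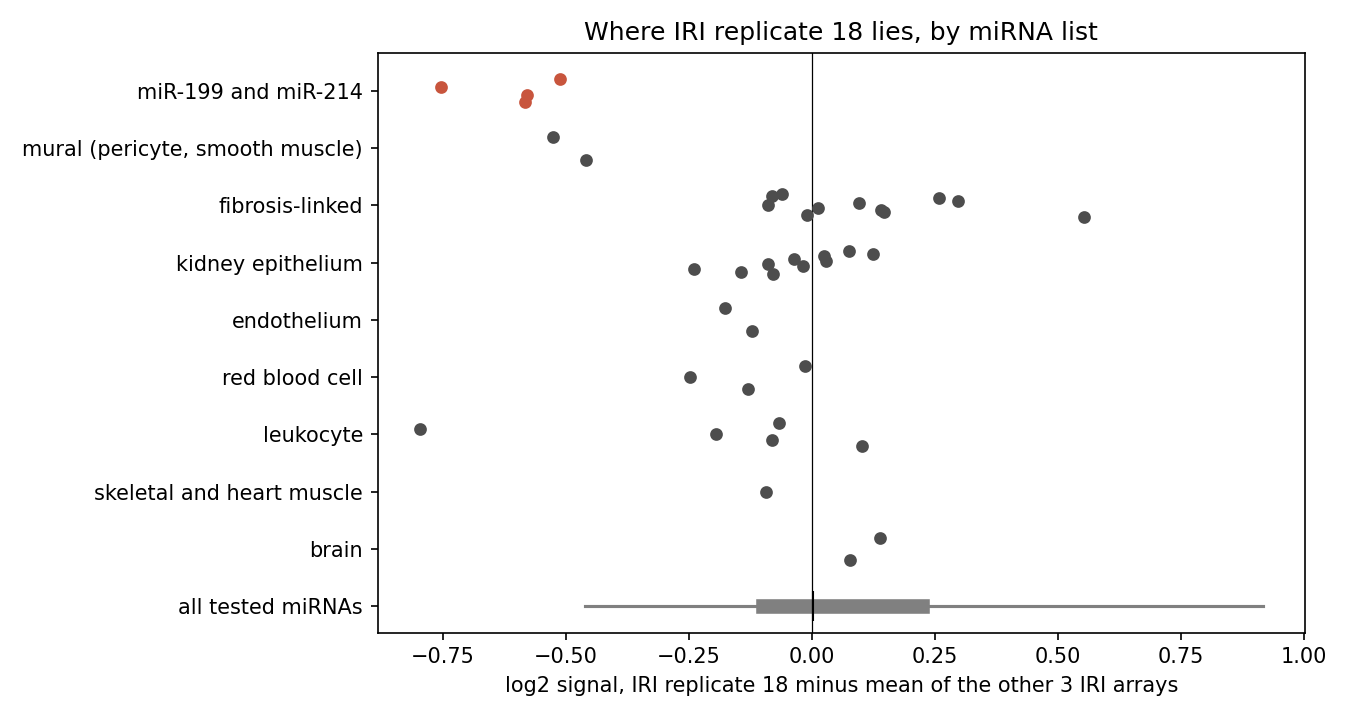
Log2 signal of IRI replicate 18 minus the mean of the other 3 IRI arrays, 1 point per tested miRNA, by list; the bottom line shows all 379 tested miRNAs (thin line the central 95%, thick line 25th to 75th percentile, tick the median). The 4 miR-199 and miR-214 strands lie between -0.75 and -0.51, left of the 2.5th percentile of -0.46.

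Within slide columns, each of which held 1 array of either group, the IRI minus sham difference depended on the column. In column 1 (sham 1 and IRI 1) it was 0.0082 for miR-199a-3p, -0.029 for miR-199a-5p, -0.10 for miR-199b-5p and -0.0058 for miR-214-3p. In column 4 (sham 6 and IRI 18) it was -0.86, -0.88, -1.16 and -0.77 in that order. Columns 2 and 3 lay between, from -0.46 to -0.15. The strands were thus nearly level in column 1 and farthest apart in column 4. These are differences of single arrays.

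Scaling set the size of the change. Without scaling, miR-199a-3p gave 717, 787, 643 and 631 in sham and 841, 787, 658 and 436 in IRI. IRI 1, 2 and 3 then reached into or above the sham range, and IRI 18 alone lay below it. miR-214-3p gave 57.7, 69.7, 53.9 and 52.9 against 67.0, 64.8, 60.8 and 38.7, with the same pattern. Without scaling 0 of 4 were called lower, against 0.264% of all tested miRNAs, and with the labelling spike-ins as scale 0 of 4, against 0.528% (limma; 0 of 4 also at an unadjusted p below 0.05 in both).

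With all 8 arrays the changes stayed below 0 under each scaling, although those of miR-199a-3p, miR-199a-5p and miR-214-3p were near 0 with spike-ins as well, at -0.048, -0.068 and -0.022. Leaving out IRI 18 kept them below 0 as scaled and turned them without scaling or with spike-ins, the other scalings not being run without that array. Without scaling and without IRI 18 the changes were 0.13 for miR-199a-3p, 0.11 for miR-199a-5p, 0.031 for miR-199b-5p and 0.14 for miR-214-3p, with adjusted p from 0.463 to 0.888 (limma). Scaling moved all miRNAs: the median change over all tested was -0.11 as scaled, 0.17 without scaling and 0.19 with spike-ins. Relative to that median, the median of the 4 strands stood at -0.27, -0.24 and -0.24, and at -0.10 as scaled and -0.078 without scaling when IRI 18 was left out.

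**Figure D4:**
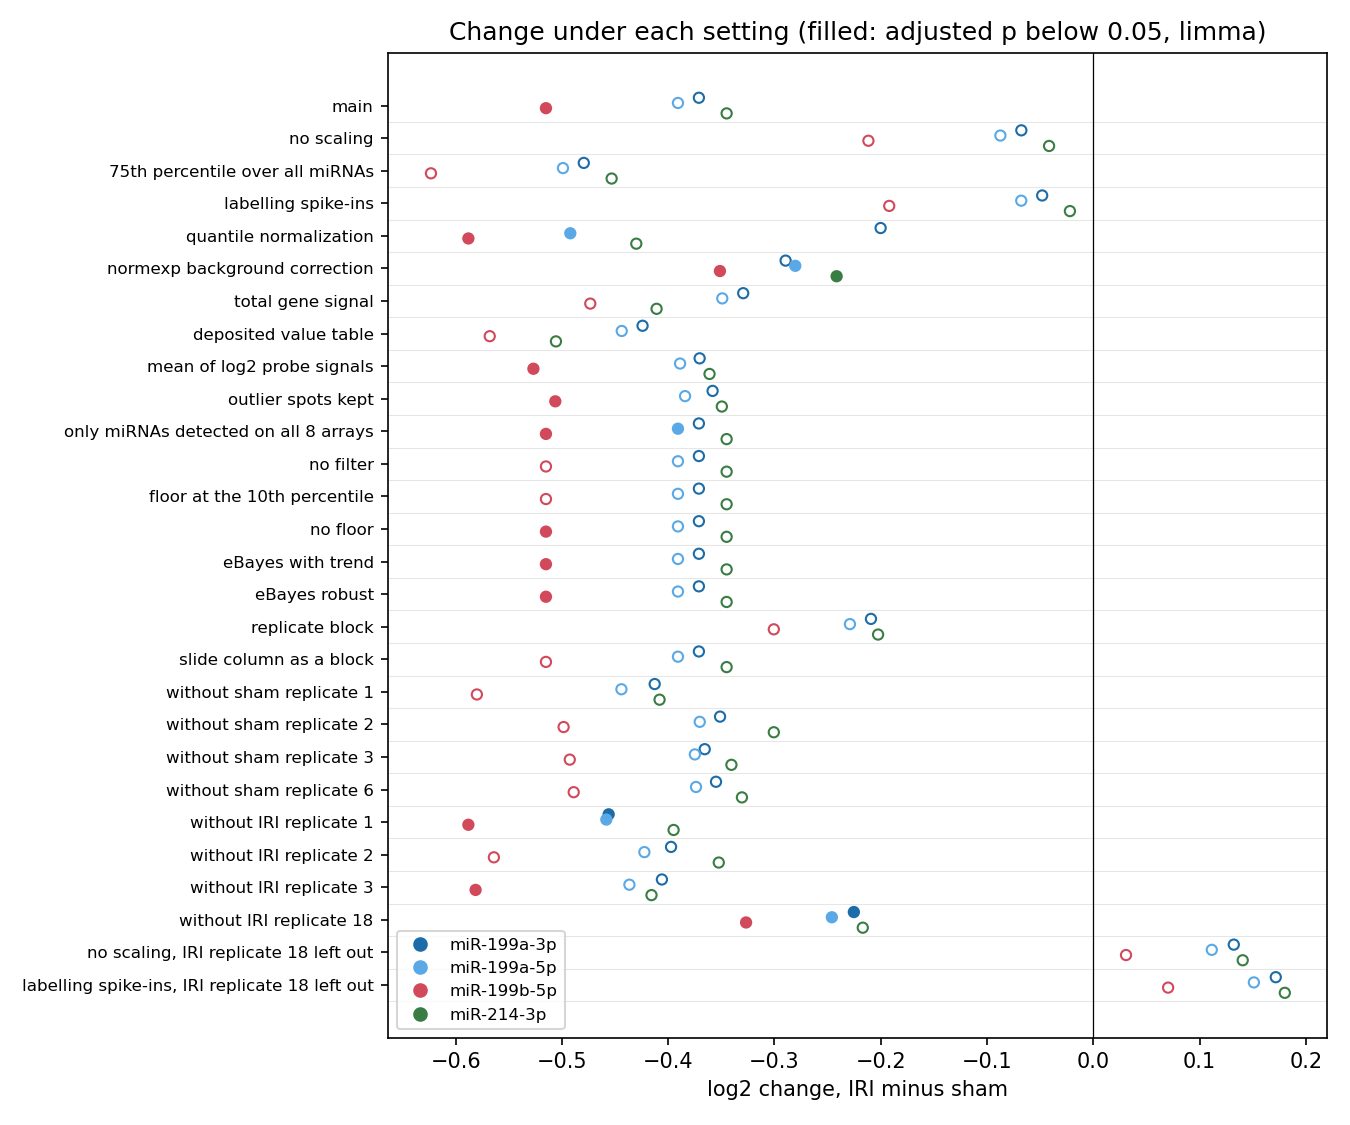
Log2 change, IRI minus sham, of the 4 detected strands under the reported setting (top, marked main) and 27 others; filled points have an adjusted p below 0.05 (limma). Points lie left of 0 in all rows but the last 2, which leave out IRI 18 and use no scaling or the spike-ins.

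Ratios between strands on the same array do not depend on that scaling. The log2 ratio of miR-199a-5p to miR-199b-5p was -0.30, -0.33, -0.36 and -0.36 in sham 1, 2, 3 and 6, and -0.23, -0.26, -0.27 and -0.08 in IRI 1, 2, 3 and 18. The groups did not overlap, and miR-199b-5p was lower relative to its sister strand in IRI by 0.12. That was 0.081 without IRI 18 and 0.071 with normexp background correction. The reported difference gave p = 0.0286 (exact permutation test, two-sided), the smallest that the 35 splits of 8 arrays allow, and 0.114 after adjustment over the 6 pairs.

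No pair passed the adjusted threshold. miR-199b-5p against miR-214-3p differed by -0.17 and miR-199a-3p against miR-199b-5p by 0.14, each with an adjusted p of 0.114 (exact permutation test). The 2 strands of miR-199a kept nearly the same ratio in both groups, 1.94 ± 0.027 in sham and 1.95 ± 0.037 in IRI (log2, SD, n = 4), a difference of 0.0197 with an adjusted p of 0.549 (exact permutation test). miR-214-3p differed from miR-199a-3p by -0.026 and from miR-199a-5p by -0.046 on the same scale, with adjusted p of 0.714 and 0.3 (exact permutation test). A single pair at the smallest p cannot pass after adjustment over 6 pairs, so these results do not show that the strands changed equally.

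The 4 strands went up and down together from array to array inside the groups. With group means subtracted, miR-199a-5p followed miR-199a-3p with Pearson r = 0.99 (Spearman rho 1), miR-199b-5p with 0.98 (0.93) and miR-214-3p with 0.93 (0.90), over 8 arrays. Among 316 miRNAs compared they ranked 1, 2 and 10 by Pearson r, whose median was 0.042. These are descriptions: the points share slide and scaling, and IRI 18 and IRI 1 lie farthest out. Over the 6 arrays without those, r was 0.99, 0.97 and 0.92, and the 3 strands ranked 1, 2 and 3. The median r over the compared miRNAs was then -0.35.

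The 5 other miRNAs with the most alike profile were miR-181b-5p (r = 0.96), miR-497a-5p (0.96), miR-143-3p (0.95), miR-145a-5p (0.95) and miR-181a-5p (0.95). They were picked for a high r over the same 8 arrays, while the strands were picked by name. Some drop of r on leaving arrays out therefore comes with the choice. Without IRI 18 and IRI 1, r was 0.72 for miR-181b-5p, 0.83 for miR-497a-5p and 0.72 for miR-181a-5p. For miR-143-3p and miR-145a-5p it was 0.54 and 0.52, and they ranked 19 and 20.

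**Figure D5:**
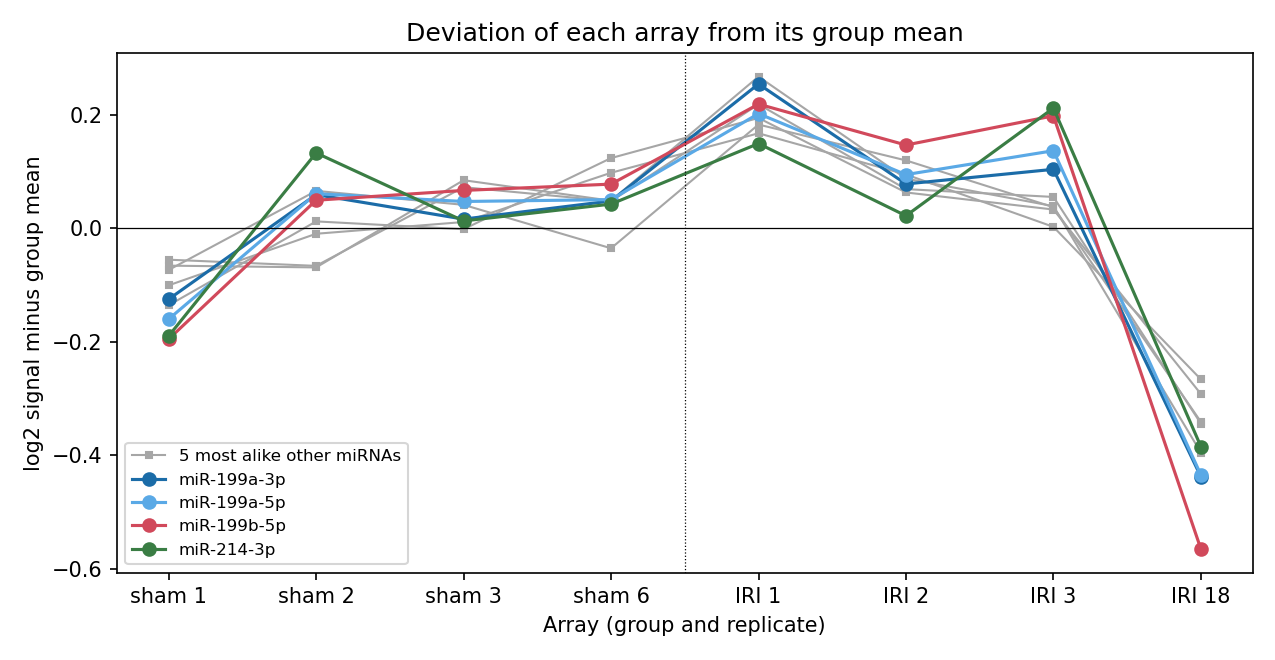
Log2 signal of each array minus its group mean for the 4 detected strands (coloured) and the 5 most alike other miRNAs (grey); lines join arrays for reading only, since replicates have no order. The strands lie between -0.57 and -0.39 in IRI 18, and all 4 lie below 0 in sham 1.

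Other miRNAs of the stroma and of fibrosis give the setting. Of all 379 tested miRNAs, 36.7% were called lower and 12.1% higher as scaled (limma, adjusted p below 0.05). Without scaling 0.264% were called lower and 53 miRNAs higher. Both tested vessel-wall miRNAs fell in IRI, miR-143-3p by 0.43 and miR-145a-5p by 0.53 on the log2 scale (adjusted p = 0.0179 and 0.0132, limma), and 0 of 2 were called without scaling (limma; 0 also at an unadjusted p below 0.05). Of 13 fibrosis-linked miRNAs 11 were tested, and 3 rose and 6 fell (limma). The 3 that rose were miR-21a-5p, raised by many kinds of kidney injury, at 1.47 ± 0.16 (SE), its partner strand miR-21a-3p, detected on 0 sham arrays and all 4 IRI arrays, and miR-132-3p, detected on 1 sham array. The antifibrotic miR-29 strands were among the 6 that fell, miR-29a-3p by 0.40, miR-29b-3p by 0.49 and miR-29c-3p by 0.57. The others of the 6 were miR-34a-5p, which fell by 0.55, miR-212-3p by 0.54 and miR-23a-3p by 0.24. Without scaling 3 of 11 were called higher and 0 lower (limma; 0 lower also at an unadjusted p below 0.05).

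Markers of other kidney cells moved as well, where 36.7% of all tested miRNAs were called lower and 12.1% higher (limma). Without scaling 0.264% of all were called lower. The 10 kidney epithelial miRNAs all fell (median -0.46), and their summed scaled signal was 32260 to 36440 on sham and 23620 to 27150 on IRI arrays. Both miR-126a strands of endothelium fell (median -0.35), with sums of 4623 to 5333 and 3836 to 4321. The 3 red blood cell miRNAs rose, with sums of 41.1 to 902 on sham and 2940 to 4087 on IRI arrays. Of these 3, miR-144-3p was detected on 2 sham arrays and miR-486a-5p on 0, so both were tested only through the IRI group. Of 5 leukocyte miRNAs, 1 rose, miR-223-3p of myeloid cells, and 4 were not called (limma). Of those 4, miR-142a-3p was at 0.29 and miR-142a-5p at 0.19. miR-150-5p was at -0.57 (adjusted p = 0.0566, limma) and miR-342-3p at -0.14. The leukocyte sums were 569 to 731 on sham and 764 to 1115 on IRI arrays. The sums of the miR-199 and miR-214 strands were 1163 to 1345 on sham and 718 to 1155 on IRI arrays. Their largest part was miR-199a-3p, whose groups overlapped. Such sums are read between groups and not between lists. The part of such shifts in cell makeup in the lower miR-199 and miR-214 signals was not tested, and without scaling 0 of 10 epithelial and 0 of 2 endothelial miRNAs were called lower (limma; 2 and 0 at an unadjusted p below 0.05).

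The promoter of Dnm3os is printed because 3 of the strands that ran together, miR-199a-3p, miR-199a-5p and miR-214-3p, can come from this transcript. miR-199b-5p ran with them too, although its hairpin lies opposite Dnm1 and outside Dnm3os. It followed miR-199a-3p with Pearson r = 0.98, against 0.93 for miR-214-3p. Without IRI 18 and IRI 1 these were 0.97 and 0.92. The miR-199a-3p value includes the 3p strand of Mir199b, and the miR-199b-5p probes have 1 mismatch to both Mir199a hairpins. Spot error was also largest for miR-214-3p, at up to 3.91%. The r values therefore do not separate Dnm3os from Mir199b. Whether this promoter had a part in the shared pattern was not tested. The printed promoter covers chr1:162217373-162217672 of GRCm38.p6, plus strand (RefSeq), with motif matches in capitals.
Dnm3os promoter: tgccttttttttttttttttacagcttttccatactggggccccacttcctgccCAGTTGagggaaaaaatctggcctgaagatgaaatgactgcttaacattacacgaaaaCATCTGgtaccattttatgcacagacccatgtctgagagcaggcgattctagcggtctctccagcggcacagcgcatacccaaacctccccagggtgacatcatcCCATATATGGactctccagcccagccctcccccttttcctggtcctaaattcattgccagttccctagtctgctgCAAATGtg
The E-box, CANNTG, the general site of basic helix-loop-helix factors, matched 3 times, at -196, -138 and 42 from the start. At least 1 match was held by 72.3% of all 32851 promoters in the table and at least 3 by 17.6%. The form CATCTG (or CAGATG on the other strand), which overlaps the E-box search, matched once, as in 17.2% of promoters. A CArG box, the site of serum response factor, matched at -33, and 1.63% of promoters held at least 1; it was searched after the sequence had been seen. Both strands were searched. The arrays do not tell which hairpin a miR-199a strand came from.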

How the data were processed

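Kidney RNA (100 ng, from 30 mg tissue) was labelled with Cy3 and hybridised to single-colour Agilent miRNA arrays, per the labels' protocols. The deposited scanner files hold spot intensity from Agilent Feature Extraction 12.0.3.1, background-subtracted and not normalized between arrays, per the file headers, which name build mm9. A deposited table of linear ratios, 1 per miRNA and array, was an alternative only. Its deviations between arrays followed the scanner's total gene signal (r = 1 on each array), so a higher ratio means more signal; how it was scaled and centred is not known. Per column the median ratio was 0.859, 1.23, 1.29 and 1.30 (sham) and 0.658, 0.646, 1.16 and 0.749 (IRI).

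Control and outlier spots (1422 to 1560 of 56430 per array) were left out, and 0 spots were saturated. Processed signals were averaged per probe, summed per miRNA, divided by an array factor (75th percentile of the 317 miRNAs that every array detected), floored at 17.3 (the 5th percentile of detected signals) and taken to log2. limma 3.58.1 under R 4.3.3 (lmFit, eBayes, two-sided, Benjamini-Hochberg, 0.05) was run over the 379 miRNAs detected on all 4 arrays of a group. Checked on simulated arrays of both groups (379 miRNAs), the fit recovered 16 of 20 changed 1.5-fold and 19 of 20 changed 2-fold. Ratios of strands were compared by exact permutation over 6 pairs.

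Named were the 5 strands, miRNAs sharing a seed, the 5 miRNAs most correlated with miR-199a-3p, and list members where a result turned on them. Members and lists were chosen with earlier results of these data known. RefSeq tables (GRCm38.p6) gave sequences and gene neighbours, with no position of the files mixed in. The precision is limited by 4 arrays per group. Alternatives numbered 25, plus 3 chosen after seeing the data.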

Additional observations from a re-analysis of the deposited data

Results flagged for a closer look

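Single arrays stood apart for the miR-199 5p strands. The gap of the lowest array to its nearest neighbour was divided by the range of the group on the log2 scale. In 4 of the 8 groups checked this ratio was above Dixon's critical value for 4 samples, while chance gives about 1 in 20. The share of all tested miRNAs above that value was not computed, so the count has no background from these arrays. For miR-199a-5p the ratio was 0.938 in sham, where sham 1 was low, and 0.831 in IRI, where IRI 18 was low. For miR-199b-5p it was 0.896 in sham (sham 1) and 0.908 in IRI (IRI 18). The 4 strands share arrays and ran together, so these are not independent. For miR-199a-3p the ratios were 0.766 and 0.745, and for miR-214-3p 0.628 and 0.682, below the critical value, with the same arrays lowest.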

How the results depend on the processing

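Over 27 other settings the 4 strands stayed lower in IRI in 25 and turned in 2. Those 2 left out IRI 18, without scaling (0.13, 0.11, 0.031 and 0.14 for miR-199a-3p, miR-199a-5p, miR-199b-5p and miR-214-3p; 0 strands called, 1 miRNA lower in all) or with spike-ins (0.17, 0.15, 0.0704 and 0.18; 0 and 1). The miR-199b-5p call was lost in 16 of the 27: -0.21 without scaling, -0.62 with the percentile over all miRNAs, -0.19 with spike-ins, -0.47 with total gene signal, -0.57 with the deposited table, and -0.52 without a filter, with a 10th percentile floor or with slide column as a block. Each left 0 strands called lower. All miRNAs called lower numbered 119 to 144 of 379 in those settings whose count is not given below. miR-199a-5p was called with quantile normalization (-0.49; 2 strands), with normexp (-0.28, as was miR-214-3p at -0.24; 3 strands) and among miRNAs detected on all 8 arrays (-0.39; 2 strands). In these settings 128 of 379, 159 of 379 and 139 of 317 miRNAs were called lower. Among miRNAs detected on all 8 arrays, 31 of 317 were called higher. With them were 1 red blood cell and 1 fibrosis-linked miRNA, against 3 and 3 as reported. Counts of all miRNAs lower and higher, 139 and 46 as reported, were 1 lower without scaling, 2 and 75 with spike-ins, 18 higher with normexp, 90 and 21 without a filter, and 26 higher without scaling and IRI 18. With the replicate number as a block miR-199b-5p was at -0.30 (adjusted p = 0.11, limma), with 0 strands, 50 lower and 17 higher; same-numbered arrays did not deviate together (r = -0.16, -0.20 and 0.24). Leaving out 1 array at a time gave -0.46 to -0.23 for miR-199a-3p, -0.46 to -0.25 for miR-199a-5p, -0.59 to -0.33 for miR-199b-5p, -0.42 to -0.22 for miR-214-3p, and 0 to 3 strands called. Of all 379 tested miRNAs, 114 to 145 were called lower in those fits (limma). Pair differences that turned were not called: -0.0091 for the miR-199a strands with normexp, and 0.082 and 0.062 for miR-199a-3p and miR-199a-5p against miR-214-3p with total gene signal or the deposited table; without 1 array miR-199a-3p against miR-214-3p ran from -0.061 to 0.0098. The cause was not tested.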
